A study of Oryza sativa with 81 samples.

Results

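The change in counted RNA between filling panicles and young seedlings was measured in each of 9 rice lines (Oryza sativa) and then compared between the lines. It rests on 54 of the 81 libraries of the series, chosen by their labels alone: 27 from filling panicles and 27 from young seedlings, with 3 libraries per line in each tissue. The 5 hybrids were first-generation crosses, WY998 (WFB with R998), WY308 (WFB with R308), RY998 (RFB with R998), RY308 (RFB with R308) and WR (WFB with RFB). The 4 parents were R998, R308, RFB and WFB. All plants grew in an experimental field and no treatment is named. Whether replicates were separate plants is not stated, so the p-values measure library-to-library spread, which may be technical. Every hybrid shares a parent with other hybrids, so the lines are not independent of each other.

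A young seedling consists largely of growing leaves and roots. A filling panicle carries grains in which the endosperm lays down starch and storage proteins, so the tissues hold very different cell types, and fewer cells of a type cannot be told apart from less RNA per cell in such samples. A first-generation hybrid carries 1 chromosome set from each parent. With each parental copy working as it does in the parent, its level would lie midway between them, and hybrids whose levels leave that path are studied in work on heterosis, or hybrid vigour. The gene models carry identifiers that no source used here pairs with a name, so no role can be given to any of them. Lists of known seedling and grain genes could not be read for the same reason, and the labelled tissues could not be checked against their marker genes.

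The tissues separated without overlap in the correlation of libraries across gene models. A filling panicle library correlated at 0.958 to 0.990 with the others of its line and tissue and at most at 0.745 with any seedling library. For seedling libraries the mean within the group was 0.976 to 0.990. Totals ran from 29054241 to 45765805 counts. For 11 libraries, some library from outside the line correlated more closely than the mean of the own group. They were R998 filling panicle replicate 9 (0.958 within and 0.960 outside), WY308 filling panicle replicate 7 (0.965 and 0.971) and 9 hybrid seedling libraries, among them all 3 of WR (0.980 to 0.982 within and 0.980 to 0.984 outside). In filling panicles, R308 replicate 9 and RY308 replicate 8 had counts on 37377 and 34375 gene models, against at most 28816 in the other 52 libraries. Parentage could be checked for R998 and R308. Gene models with at least 5 CPM (library-scaled counts, on 1 scale for both tissues) in R998 or R308 and under 0.1 CPM in the other parents had a median level of 0.392 to 0.634 of that parent in the libraries of its own hybrids. In the other hybrids the median was at most 0.00632 of it.

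Every line changed between the tissues on a like scale. In the hybrids, filling panicles held 10475 gene models higher in WY998 (40.2% of the 26042 tested) and 8985 lower (34.5%), by edgeR's quasi-likelihood test with Benjamini-Hochberg adjusted p under 0.05. WY308 had 10770 higher (41.4%) and 9086 lower (34.9%), RY998 10516 (40.4%) and 8881 (34.1%), RY308 10615 (40.8%) and 8979 (34.5%), and WR 10312 (39.6%) and 8909 (34.2%). Among the parents, R998 had 10361 higher (39.8%) and 8368 lower (32.1%), R308 11182 (42.9%) and 8497 (32.6%), RFB 10292 (39.5%) and 8756 (33.6%), and WFB 10305 (39.6%) and 8615 (33.1%). R308 stood at an end of several counts, with 8254 gene models higher by at least 2-fold and 1147 lower by at least 8-fold. The other 8 lines had 7312 to 7781 higher by at least 2-fold and 1415 to 1687 lower by at least 8-fold. R308 replicate 9, the library with counts on the most gene models, belongs to this group, and without it R308 had 10214 higher and 8620 lower. Large changes leaned to the filling panicle in each line: 3690 to 4341 gene models were at least 8-fold higher. The median log2 change over all tested gene models lay between 0.10 and 0.20 in the 9 lines, highest in R308. In R308 it was 0.09 without R308 replicate 9 and RY308 replicate 8, and 1.13 with no filter on low counts, where RY308 had 0.42.

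**Figure D1:**
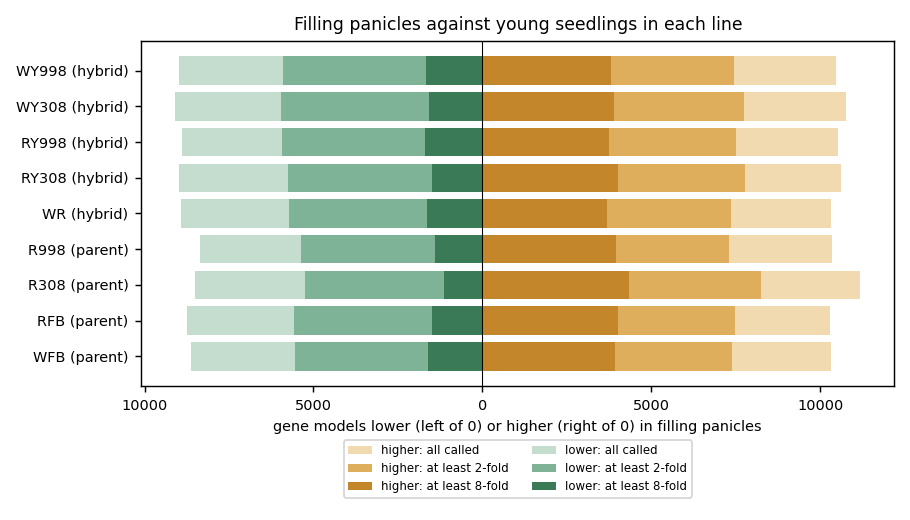
Gene models called lower (left of 0) and higher (right of 0) in filling panicles than in young seedlings in each line, hybrids above parents; the shades mark all called, at least 2-fold and at least 8-fold. The bars to the right run from 10292 in RFB to 11182 in R308 and those to the left from 8368 in R998 to 9086 in WY308.

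A common set of gene models changed in the same direction everywhere. Of the 26042 tested, 7109 (27.3%) were higher and 5622 (21.6%) lower in filling panicles in all 9 lines, 4975 and 3349 of them by at least 2-fold each time and 2364 and 567 by at least 8-fold. For 5558 gene models (21.3% of those tested) the lowest of the 27 filling panicle libraries exceeded the highest of the 27 seedling libraries. For 4237 (16.3%) the reverse held. In contrast, 902 (3.46%) were called in no line. By level, 118 gene models averaged over 100 CPM in filling panicles and under 1 CPM in seedlings, and all 118 were called higher in all 9 lines. In the other direction 4 gene models averaged over 100 CPM in seedlings and under 1 CPM in filling panicles, and all 4 were called lower in all 9. These classes were cut on the same levels that the calls test, so such calls were close to built in. Gene models higher in all 9 lines had a median length of 1437 bases, those lower in all 9 had 1553 bases, and all tested had 1465 bases.

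The gene models at the ends of this common set were all but absent from a tissue. OsR498G0713719900.01 had 3771 CPM at the lowest, 11953 at the median and 27636 at the highest of the 27 filling panicle libraries, and no count in the 27 seedling libraries. OsR498G0713719700.01, whose identifier is close by, had 1875, 6990 and 20460 CPM in filling panicles and again no count in seedlings. Against a floor of 3 counts over the 3 seedling libraries of a line, OsR498G0713719900.01 was at least 204658-fold higher in filling panicles of WFB and at least 546903-fold higher in those of WR. Its spread was widest in R998, with 27460 CPM in replicate 9 against 3963 and 4484 CPM in replicates 7 and 8. OsR498G0102749300.01 had 0.0188, 0.354 and 2.33 CPM (lowest, median, highest) in filling panicles and 343, 691 and 1193 CPM in seedlings. Its log2 change was -9.38 ± 0.64 in WY308 and -12.62 ± 0.76 in RY998 (SE), with the 7 other lines in between. OsR498G0203308700.01 had at most 0.570 CPM in filling panicles, reached in R308 replicate 9, and 48.0 to 295 CPM in seedlings. All 4 had adjusted p of at most 2.9e-11 in every line (edgeR).

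Some gene models changed in opposite directions in different lines. There were 1478 gene models (5.68% of those tested) called higher in some lines and lower in others, 461 of them (1.77%) by at least 2-fold each way. Of these, 422 (1.62% of those tested) were also called when the change was tested for a difference among the 9 lines. That test called 38.3% of all tested gene models. The 461 were chosen by calls each way in the same fit, so their high share is in part built in. A clear case was OsR498G0613248700.01. Its seedling level was 0, 0.0823 and 0 CPM in the 3 RFB libraries, 6.54 to 10.6 CPM in WR, 4.30 to 9.71 CPM in RY998, 7.0 to 8.45 CPM in RY308 and 27.3, 28.0 and 27.9 CPM in WFB, while no filling panicle library exceeded 0.460 CPM. The log2 change was therefore 3.10 ± 1.16 in RFB (adjusted p = 0.0159, edgeR) from very low levels in both tissues, and between -10.60 and -5.06 in the other 8 lines. OsR498G0407441900.01 was named for its wide range among lines. Its low end, a log2 change of -9.37 ± 1.86 in WR, rested on a single library, WR seedling replicate 2 at 22.9 CPM, with the other seedling libraries at 0.247 CPM or below. At the high end, WY998 had 1.72, 1.43 and 1.54 CPM in filling panicles and no count in seedlings, at least 45.5-fold higher, and R998 had 1.0, 0.628 and 0.417 CPM in filling panicles and no count in seedlings. Without WR replicate 2 the gene model was still called among the 9 lines (adjusted p = 0.00202, edgeR).

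The change was then tested for differences among lines. Among the 9 lines it differed for 9974 gene models (38.3% of those tested), among the 4 parents for 6300 (24.2%) and among the 5 hybrids for 4963 (19.1%), with the F test of edgeR's quasi-likelihood fit at an adjusted p under 0.05. Tests with different numbers of lines differ in power, so these counts are not set against each other. Of the 9974, 4822 were called in the same direction in all 9 lines, so they differed in size and not in sign. This share is close to that over all tested gene models, of which 27.3% were higher and 21.6% lower in all 9 lines. It is thus not particular to those that differed. By mean level, the share that differed was highest with over 100 CPM in seedlings and 1 to 10 CPM in filling panicles. There it was 73.3% of 45 gene models. It was 63.5% of 532 with over 100 CPM in seedlings and 10 to 100 CPM in filling panicles. With 10 to 100 CPM in seedlings and 1 to 10 CPM in filling panicles it was 57.9% of 2115. Of the 4 gene models with over 100 CPM in seedlings and under 1 CPM in filling panicles, 25% differed. The share was 56.3% where both tissues were over 100 CPM and 13.9% where both were under 1 CPM. Where filling panicles were over 100 CPM, it was 54.5% with 10 to 100 CPM in seedlings, 47.7% with 1 to 10 CPM and 5.93% of the 118 gene models with under 1 CPM. Low counts limit such tests, so a low share does not show that the lines agree. Of the 3724 tested gene models with no count in at least 1 of the 18 groups, 4.91% were called between hybrids and parents. Among the other tested gene models it was 16.7%.

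Lines were set side by side by the median absolute difference of their log2 changes over 15473 gene models with a mean of at least 4 CPM. The smallest difference was 0.15, between RFB and WFB. WY308 lay 0.17 from its parent R308 and 0.36 from its other parent WFB, the largest difference of all 36 pairs. WY998 lay 0.18 from WFB and 0.22 from R998, RY308 0.24 from both RFB and R308, and WR 0.27 from RFB and 0.31 from WFB. RY998 was 0.25 from RFB and 0.27 from R998. In 3 hybrids another hybrid was nearer than either parent. RY998 lay nearest to WY308, at 0.20, a pair that shares no parent. RY308 and WR, which share RFB, lay nearest to each other, at 0.18. RY308 also lay 0.21 from WY998, with which it shares no parent. Between a hybrid and its own parent, the median absolute log2 difference in level was 0.10 to 0.27 in filling panicles and 0.10 to 0.17 in seedlings over the 10 pairs. These values describe the libraries and were not tested.

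**Figure D2:**
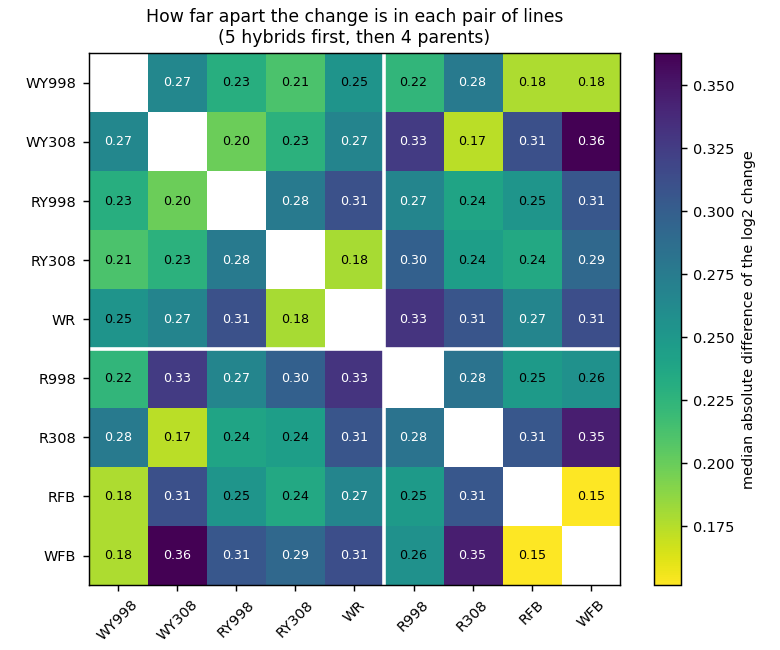
Median absolute difference of the log2 change (filling panicles minus young seedlings) for each pair of lines, over 15473 gene models; darker cells are farther apart and the white lines part the hybrids from the parents. RFB and WFB (0.15) and WY308 and R308 (0.17) are nearest, and WY308 and WFB (0.36) farthest apart.

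Between parents, R308 took part in the pairs with the most gene models that changed differently. There were 5292 (20.3%) for WFB minus R308, 3993 (15.3%) for RFB minus R308 and 2799 (10.7%) for R998 minus R308, against 2347 (9.01%) for WFB minus R998, 1938 (7.44%) for RFB minus R998 and 79 (0.303%) for WFB minus RFB. In the 3 pairs with R308 the difference between the lines was larger in filling panicles for 67.7%, 64.1% and 60.6% of these gene models. WFB and RFB differed mainly as seedlings: 73 of the 79 had the larger difference there, and 36 of the 79 carried identifiers that begin with 06, as 2117 of the 26042 tested do. OsR498G0307059800.01 shows the seedling difference. It lay at 28.4, 31.7 and 27.3 CPM in WFB filling panicles and 29.5, 31.2 and 28.7 CPM in RFB filling panicles, whereas the seedling libraries held no count in WFB and 1.35, 7.44 and 1.92 CPM in RFB. Filling panicles were thus at least 738-fold higher than seedlings in WFB, and the log2 change in RFB was 3.09 ± 0.37.

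Several gene models that set a parent apart from the other 8 lines had a seedling level near 0 in that parent and intermediate levels in its hybrids. OsR498G0100999600.01 had 33.7, 21.5 and 15.9 CPM in R998 filling panicles and no count in R998 seedlings. Seedlings of the R998 hybrids held 3.41 to 3.94 CPM in WY998 and 2.78 to 3.86 CPM in RY998, while R308 had at least 18.7 CPM and its hybrids WY308 and RY308 12.1 to 14.4 CPM. RFB and WFB seedlings had 5.72 to 8.10 CPM. OsR498G0714841800.01 had 0.485, 0.511 and 0.423 CPM in WFB filling panicles and no count in WFB seedlings, and reached 21.6, 22.5 and 22.1 CPM in RFB seedlings. WR, the cross of both, had 9.33, 9.49 and 11.4 CPM in seedlings. In reverse, OsR498G1220803700.01 was counted in seedlings of R308 (5.61, 6.11 and 6.23 CPM) and of its hybrids WY308 (2.30 to 3.49 CPM) and RY308 (3.10 to 3.94 CPM). The other seedling libraries had no count, but for 1 WR library at 0.0765 CPM. In filling panicles it was present in all lines at 0.289 to 2.50 CPM, so that it fell in R308, with a log2 change of -1.45 ± 0.29, and was at least 12.7-fold higher in filling panicles than in seedlings of R998. OsR498G0611656900.01 had 1.85, 4.77 and 4.66 CPM in RFB seedlings and at most 1.07 CPM in other seedlings, with 2.61 to 2.79 CPM in RFB filling panicles and 4.23 to 31.4 CPM in those of the other lines.

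A seedling level could also lie outside the range of the parents. OsR498G0101399300.01 had 16.2, 18.5 and 21.0 CPM in RY998 seedlings, against 11.6 to 14.5 CPM in its parent R998 and 0.481 to 0.740 CPM in its parent RFB. WY998, the other R998 hybrid, had 6.83 to 8.38 CPM and the remaining seedling libraries at most 1.16 CPM. Filling panicles of all lines held 6.31 to 28.3 CPM. RY998 was thus the line in which this gene model fell in filling panicles (log2 change -1.0 ± 0.21), and its change differed from the mean of the other 8 lines by -4.30 ± 0.25 (adjusted p = 1.16e-16, edgeR). OsR498G0511036300.01 was named for its positive difference in WR. It had 8.86, 8.75 and 7.56 CPM in WR filling panicles and 13.5, 19.4 and 18.6 CPM in WR seedlings. WFB had 4.29 to 5.41 CPM in filling panicles and 72.1 to 77.6 CPM in seedlings, and RFB 5.12 to 6.31 and 49.7 to 65.3 CPM, so WR lay above both parents in filling panicles and below both in seedlings, with no overlap. Its log2 change was -1.03 ± 0.18 in WR, -3.91 ± 0.20 in WFB and -3.35 ± 0.19 in RFB.

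Against the mean of the other 8 lines, the change of WY998 differed for 636 gene models (2.44%), WY308 for 2772 (10.6%), RY998 for 2720 (10.4%), RY308 for 1061 (4.07%), WR for 2747 (10.5%), R998 for 3047 (11.7%), R308 for 3616 (13.9%), RFB for 1160 (4.45%) and WFB for 3287 (12.6%). These comparisons share libraries. The difference was larger in filling panicles than in seedlings for 71.7% of these gene models in WY998, 80.5% in WY308, 72.2% in RY998, 66.7% in RY308 and 55.3% in WR, and for 51.8% in R998, 67.3% in R308, 51.0% in RFB and 52.0% in WFB, so the shares of hybrids and parents overlapped. Leaving out single libraries moved some counts by over 1.5 times. R998 had 4815 without replicate 9 and 1983 and 1937 without replicates 1 and 7. WFB had 2098 and 2031 without replicates 1 and 7, WY308 1762 without replicate 9, and WR 1791, 1535 and 1468 without replicates 3, 7 and 9. RFB fell to 660 to 771 without replicate 2, 3 or 9, RY308 to 550 to 678 without replicate 2, 3, 7 or 8, and WY998 to 374 without replicate 7 or 8. OsR498G0100954400.01, named for R308, rests on 1 library: it had 0, 0 and 0.460 CPM in R308 filling panicles, the last in replicate 9, and no count in R308 seedlings.

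Hybrids as a group were compared with parents as a group by the difference of their mean log2 changes. The test used the spread between libraries and not the spread between lines. Its calls and p-values therefore describe these lines and not hybrids and parents in general. The change was higher in the hybrids for 1884 gene models (7.23% of those tested) and lower for 2024 (7.77%). Most of these differences were small: the median size was 0.45 on the log2 scale, and 153 higher and 496 lower gene models differed by at least 2-fold. In 249 of the higher and 269 of the lower ones, all 5 hybrid changes lay on 1 side of all 4 parental changes. Among all 26042 tested gene models, 380 lay above and 438 below in this way. The called ones were chosen by the same difference, so their separation is in part built in. The difference between hybrids and parents was larger in seedlings than in filling panicles for 2434 of the 3908 (62.3%), with a median size of 0.19 in filling panicles and 0.26 in seedlings. A mean of logarithms is not the level expected of a hybrid midway between its parents. When the arithmetic mid-parent level of each cross was used as the expectation in both tissues, 3748 gene models were called, and 3179 of the 3908 were among them with the same sign.

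Among gene models with at least 5 CPM whose hybrid and parental changes did not overlap, OsR498G1019203700.01 had the most positive difference between hybrids and parents, at 2.01 ± 0.29 (adjusted p = 6.24e-06, edgeR). Its filling panicle levels overlapped, with 0.720 to 3.02 CPM in the 15 hybrid libraries and 1.16 to 3.04 CPM in the 12 parental ones. In seedlings the hybrids had 0.643, 1.65 and 3.6 CPM (lowest, median, highest) and the parents 2.02, 8.90 and 18.2 CPM, where R308 with 2.02 to 3.85 CPM overlapped the hybrids. OsR498G0305774900.01 was next, with a difference of 1.61 ± 0.27. It lay at 3.83 to 10.7 CPM in hybrid and 2.27 to 10.5 CPM in parental filling panicles, and at 0.115 to 0.640 CPM in hybrid and 0.224 to 1.01 CPM in parental seedlings. OsR498G0612251700.01, among the most negative at -3.62 ± 0.63, shows the limit of the mean of logarithms. It was near 0 in R998 and R308 in both tissues, with at most 0.460 CPM, and in seedlings the hybrids of these lines had 11.2 to 17.5 CPM, against 20.7 to 32.4 CPM in RFB and WFB. With the arithmetic mid-parent the difference was -0.55 (adjusted p = 0.54, edgeR). Without R308 replicate 9 it was -2.23, and that fit did not call the gene model. With few or no counts left in R998 and R308, no p-value is given for it. OsR498G1019170200.01, at -3.77 ± 1.24, was -3.42 with the arithmetic mid-parent (adjusted p = 0.0585) and -3.77 with no filter on low counts (adjusted p = 0.0605). Both miss the threshold at a size close to the first. It was -2.32 without WR replicate 2 and -3.18 without RY308 replicate 1. Neither of these fits called it. With no count in WFB seedlings and few or none left in those of the hybrid, no p-value is given for them.

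**Figure D3:**
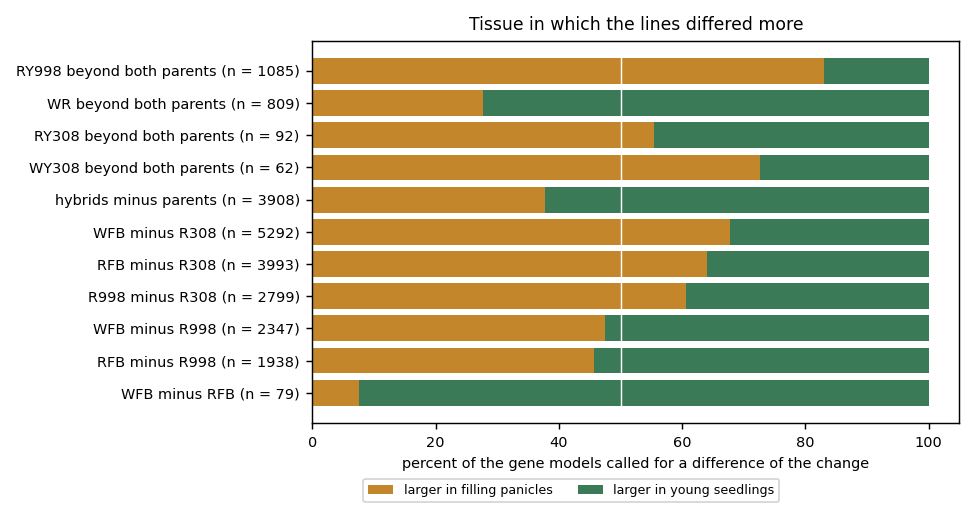
Share of the gene models called for a difference of the change that had the larger difference in filling panicles (left part of each bar) or in young seedlings (right part), with the number called beside each comparison. The larger difference lay in filling panicles for 83.0% in RY998 beyond both parents, and in seedlings for 72.3% in WR beyond both parents and 92.4% in WFB minus RFB.

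Each cross was next examined for changes beyond both of its parents, a call that needed an adjusted p under 0.05 against each. WY998 had 5 gene models above (0.0192% of those tested) and 1 below (0.00384%), WY308 17 above (0.0653%) and 45 below (0.173%), and RY308 50 above (0.192%) and 42 below (0.161%). RY998 had 553 above (2.12%) and 532 below (2.04%), and WR 487 above (1.87%) and 322 below (1.24%). The counts of RY998 stayed within 1.5 times without any single library, at 457 to 617 above and 405 to 574 below. Those of WR fell to 221 to 306 above without RFB replicate 2, 3 or 9 or WR replicate 3, 7 or 9, and to 149 to 214 below without the same libraries other than WR replicate 3. The small counts of the other 3 crosses depended on single libraries. WY308 had 6 above and 23 below without R308 replicate 9, and 91 above and 101 below without WY308 replicate 7. Leaving out R308 replicate 2, 3 or 7 or WY308 replicate 2, 8 or 9 gave 7 to 33 above, and leaving out R308 replicate 2, 7 or 8 or WY308 replicate 9 gave 27 to 82 below. RY308 had 21 to 32 above without R308 replicate 1, RFB replicate 2, 3 or 9 or any RY308 replicate other than 1, and 12 to 27 below without R308 replicate 2, 3 or 7, RFB replicate 2, 3 or 9 or RY308 replicate 2, 3, 7 or 8. WY998 ranged over 0 to 7 above and 0 to 2 below, moved by 13 and 11 of its 18 libraries. Against each parent alone, the change of WY998 differed for 202 gene models against WFB (0.776% of those tested) and 792 against R998 (3.04%). WY308 had 5362 against WFB (20.6%) and 360 against R308 (1.38%), and RY998 2633 against RFB (10.1%) and 2510 against R998 (9.64%). RY308 had 803 against RFB (3.08%) and 1876 against R308 (7.20%), and WR 2824 against WFB (10.8%) and 1026 against RFB (3.94%).

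RY998 went beyond both parents mainly in the filling panicle, where 901 of its 1085 gene models had the larger difference. OsR498G0612408600.01 had 0.0229, 0.0628 and 0.0204 CPM in RY998 filling panicles, against 14.9, 16.0 and 12.7 CPM in RFB and 8.56, 11.9 and 9.14 CPM in R998. In seedlings it lay at 181 to 355 CPM in all lines. Its log2 change was -12.81 ± 0.56 in RY998, -4.49 ± 0.34 in RFB and -4.50 ± 0.34 in R998. WY308 filling panicles were as low, at 0.0488 to 0.0796 CPM, and R308 filling panicles had 0, 0 and 1.01 CPM, the last in replicate 9. The filling panicle libraries of the remaining lines, WY998, RY308, WR and WFB, had 9.53 to 17.9 CPM.

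The same lines stood together at other gene models. OsR498G0202926900.01, the farthest above both parents, had 14.6, 23.1 and 24.9 CPM in RY998 filling panicles, 13.1 to 23.1 CPM in WY308 and 9.03 to 16.0 CPM in R308. The other lines had 0.437 to 2.0 CPM there, among them the RY998 parents RFB (0.739 to 1.06 CPM) and R998 (1.83 to 2.0 CPM). Its seedling level was 2.70 to 3.19 CPM in RY998, 12.3 to 13.4 CPM in RFB and 3.83 to 9.84 CPM in R998. OsR498G0102327700.01 had 21.7 to 23.7 CPM in RY998 filling panicles, 15.9 to 18.4 CPM in WY308 and 15.6 to 19.2 CPM in R308, against 0.794 to 3.06 CPM in filling panicles of the other 6 lines and 0.387 to 1.16 CPM in all seedlings. OsR498G0102238700.01, named for its negative difference in WFB, had 14.6 to 15.8 CPM in RY998, 13.5 to 24.5 CPM in WY308 and 11.3 to 16.0 CPM in R308, against 0.0812 to 1.96 CPM in filling panicles of the others. WFB seedlings, at 42.4 to 86.4 CPM, were the highest for this gene model.

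**Figure D4:**
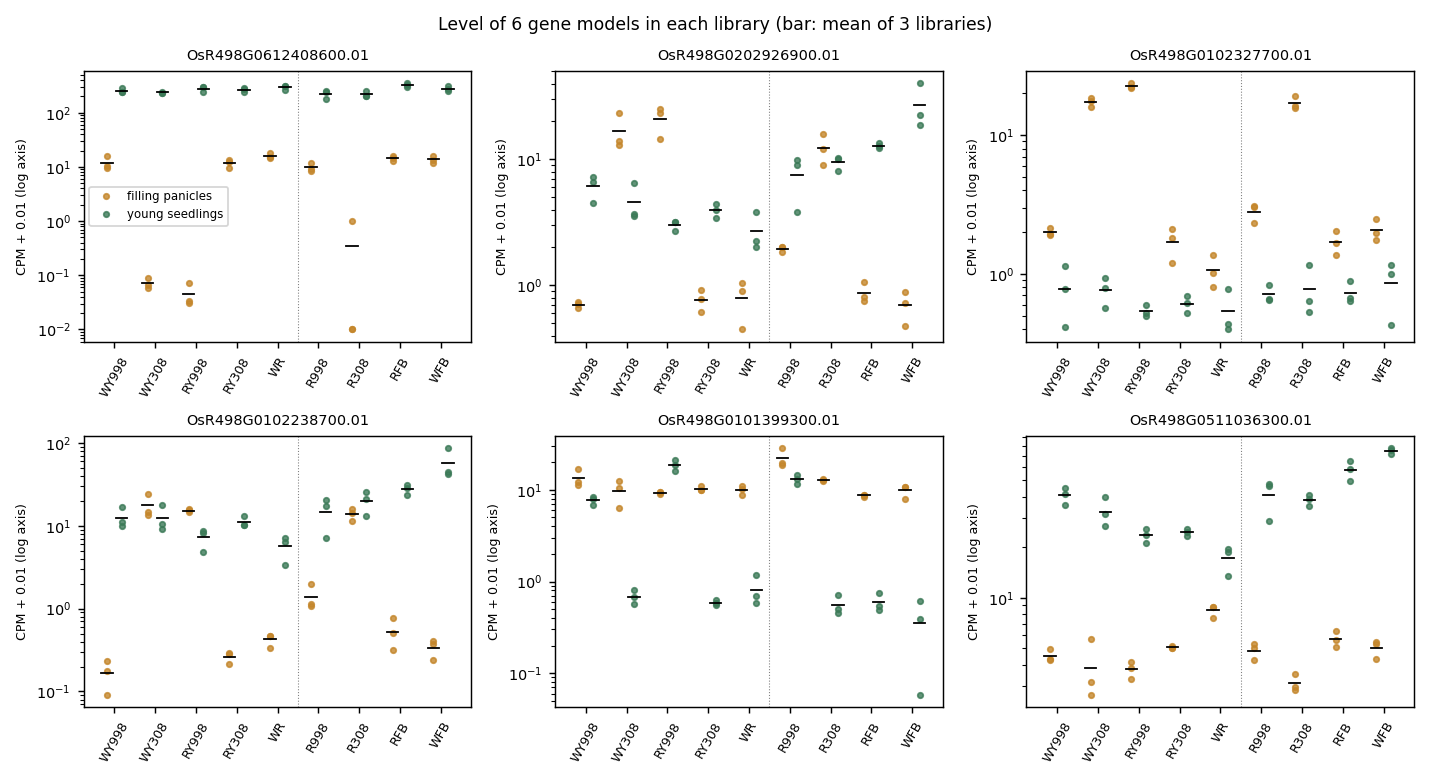
Level of 6 gene models in each library as CPM + 0.01 on a log axis, with filling panicles left of young seedlings in each line, hybrids left of the dotted line and parents right of it; bars mark the mean of 3 libraries. In the first 4 panels the filling panicles of RY998, WY308 and R308 lie apart from those of the other 6 lines, and in the last 2 the seedlings of RY998 and WR lie outside the range of both parents.

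The full lists of RY998 were followed into the 6 lines whose libraries did not choose them, an examination added after the values above had been seen. These lines are not independent of the choice: WY998 descends from R998, RY308 and WR descend from RFB, and WFB was the line nearest to RFB. They can be placed on the side of the RY998 parents by descent, and the mean of the 6 lines moves with them, so the values below are a description and the opposite side of the remaining lines, WY308 and R308, is in part built in. For each gene model the log2 level in a line was taken from the mean of these 6 lines. In filling panicles, the 553 gene models above both parents in RY998 had a median of 0.70 in WY308 and 0.63 in R308, and of -0.39 in WY998, -0.35 in RY308, -0.27 in WR and -0.35 in WFB. In WY308, 98.0% of them lay above the mean and in R308 93.3%, against 49.9% and 53.2% of all tested gene models. The 532 below both parents had medians of -0.50 in WY308 and -0.41 in R308 and of 0.18 to 0.29 in the other 4. In WY308, 95.9% lay below the mean and in R308 90.4%, against 50.04% and 46.8% of all tested. In seedlings the medians of both lists lay between -0.20 and 0.30 in all 6 lines, with the highest, for the 553, in WFB. RY998 has neither R308 nor WFB as a parent, and its filling panicle libraries carried the gene models specific to R998 at 0.467 to 0.494 of the R998 level (24 gene models) and those specific to R308 at 0 (3 gene models). What RY998, WY308 and R308 filling panicles had in common beyond these levels was not tested, and the labels give no harvest date or panicle stage for single libraries.

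**Figure D5:**
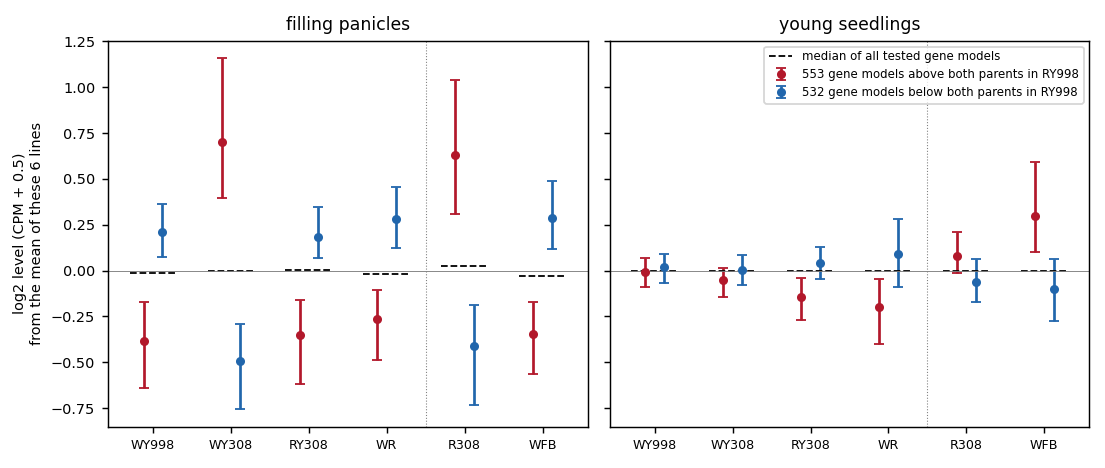
Median and interquartile range of the log2 level, relative to the mean of 6 lines, for the gene models above and below both parents in RY998, in filling panicles (left) and young seedlings (right); dashes mark the median of all tested gene models. In filling panicles WY308 (0.70 and -0.50) and R308 (0.63 and -0.41) lie on the other side of 0 from the other 4 lines, of which 3 descend from a parent of RY998.

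WR went beyond both parents mainly as a seedling, where 585 of its 809 gene models had the larger difference. The median excess over the nearer parent was 0.76 for the 487 above and -0.97 for the 322 below, by the values that chose them. OsR498G0101477000.01, the farthest above, had 5.27, 4.71 and 8.48 CPM in WR filling panicles, 3.17 to 3.46 CPM in RFB and 2.74 to 4.45 CPM in WFB. In seedlings it had 0.153, 0.0775 and 0.213 CPM in WR, 0.370 to 0.998 CPM in RFB and 0.578 to 1.31 CPM in WFB, and the groups did not overlap in either tissue. OsR498G0917872200.01, the farthest below, was uneven in WR seedlings, at 15.4, 3.87 and 1.02 CPM, against at most 0.165 CPM in seedlings of RFB and WFB. In the 6 lines whose libraries did not choose them, 4 of which have RFB or WFB as a parent, the 487 had seedling medians between -0.12 (RY308) and 0.11 (R998) from the mean of these lines, and the 322 between -0.15 (R998) and 0.18 (RY308). RY308, which shares the parent RFB with WR, lay on the side of WR in seedlings: 12.3% of the 487 were above the mean in RY308, against 45.5% of all tested, and 13.4% of the 322 below it, against 51.3% of all tested. RY998, which also shares RFB, leaned less, with 31.4% of the 487 above and 33.9% of the 322 below. In WY998 and WY308, which share WFB with WR, 62.2% and 49.7% of the 487 were above and 64.3% and 56.5% of the 322 below. A link with the shared parent was not tested.

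With all gene models included, the counts were more concentrated on few gene models in seedlings than in filling panicles in every line. Gene models with identifiers that begin with 00 took 6.76% to 9.05% of the counts in filling panicles and 48.0% to 54.3% in seedlings, as line means. The difference per line was -43.9 ± 1.72 percentage points in the 5 hybrids and -43.8 ± 2.93 in the 4 parents (SD), which gave p = 0.873 in an exact two-sided permutation test over lines (adjusted p = 0.873 over 2 such values). The 10 most abundant gene models of a library took 15.6% to 22.8% in filling panicles and 50.01% to 56.7% in seedlings. Here the difference was -33.8 ± 1.14 points in the hybrids and -36.8 ± 3.75 in the parents, with p = 0.127 (adjusted p = 0.254) in the same exact test, where 5 lines against 4 could give 0.0159 at the least. The other parents lay at -39.9 to -37.0 points and R308 at -31.5, on opposite sides of the hybrids at -35.2 to -32.4. Without R308 the exact permutation test gave p = 0.0357 for a difference of 4.80 points, the smallest p that 5 lines against 3 can give. Leaving out each of the other 8 lines in turn gave p of 0.143 to 0.286 in the same exact test. Without the identifiers that begin with 00, the mean order of the tissues was reversed. The 10 most abundant of the remaining gene models took a mean of 16.1% of their counts in filling panicle libraries (8.27% to 22.7%). In seedling libraries they took 9.80% (8.38% to 12.3%). Hybrids minus parents was then 3.78 points, with p = 0.0635 in the exact permutation test.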

How the data were processed

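RNA was measured by strand-specific, rRNA-depleted sequencing, per the labels' protocols. The authors' deposited table holds raw counts per gene model and a second table FPKM values, which were not used for tests. HISAT2 is the tool named for the reads, per the submitters' processing notes; which version, counter, build and annotation were used is not given in the sources used here. None of the 38714 identifiers matched the gene table at hand.

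The 54 libraries were analysed with edgeR 4.0.16 in R 4.3.3: filterByExpr left 26042 gene models, libraries were scaled by TMM, and 18 line-by-tissue means were fitted in 1 quasi-likelihood model. Each contrast was Benjamini-Hochberg adjusted over all tested gene models, with a threshold of 0.05. Values after ± beside a log2 value are standard errors. Named gene models were called, had at least 5 CPM in a group and had the most extreme difference of their comparison, at most 2 in each direction; libraries had not to overlap for the common set and for a line against the other 8, and line changes not to overlap for hybrids against parents. Where a group had no count, folds were set against 3 counts over its 3 libraries, which covers counting error only; the fitted log2 value of such a gene model depends on the prior count and is no bound. Gene lengths were implied by counts and FPKM. The arithmetic mid-parent entered as an offset. DESeq2 1.42.0 served an alternative test, and Python 3.11.15 with numpy 2.4.6, pandas 2.3.3, scipy 1.17.1 and matplotlib 3.10.9 the summaries. The tests were tried on simulated data. Alternatives were other size factors, no filter, all 81 libraries, a replicate block, each line alone and single libraries left out, with the trended dispersion kept. Gene models, lists and tests were chosen with earlier results of these data known. No sequence is shown, and planned lists of named pathways and markers could not be read.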

Additional observations from a re-analysis of the deposited data

Results flagged for a closer look

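The test of the difference itself marked the change as unequal between lines in each of the following comparisons. It differed among the 9 lines for 9974 gene models, among the 4 parents for 6300 and among the 5 hybrids for 4963. The mean change was higher in the hybrids than in the parents for 1884 gene models and lower for 2024. Above and below both parents there were 5 and 1 in WY998, 17 and 45 in WY308, 553 and 532 in RY998, 50 and 42 in RY308, and 487 and 322 in WR. Between parents the counts were 2347 for WFB minus R998, 5292 for WFB minus R308, 1938 for RFB minus R998, 3993 for RFB minus R308, 79 for WFB minus RFB and 2799 for R998 minus R308. Against the mean of the other 8 lines they were 636 in WY998, 2772 in WY308, 2720 in RY998, 1061 in RY308, 2747 in WR, 3047 in R998, 3616 in R308, 1160 in RFB and 3287 in WFB.

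Outside the tests, gene models that the filter on low counts had left out carried signal in a pair of filling panicle libraries. Over 3 counts fell on each of 9640 such gene models in R308 replicate 9 and on each of 3333 in RY308 replicate 8. None of the other 52 libraries had more than 717. The source of these counts was not tested.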

How the results depend on the processing

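The counts of changed gene models per line stayed within 1.5 times under all alternatives run for them. So did all counts with DESeq2's size factors in edgeR, which raised the median log2 change of a line by 0.05 to 0.09, and with the gene models of block 00 left out. Without a filter, WY998 had 2 above and 0 below both parents, and RY308 23 and 19. With all 81 libraries, WY308 had 51 and 82, RY308 96 above, WR 560 below, and WFB minus RFB 153. Under the DESeq2 test, WY998 had 8 above, WY308 45 and 81, RY308 98 above, WR 538 below, WFB minus RFB 130, and WY998 against the other 8 lines 961. Without R308 replicate 9 and RY308 replicate 8 together, WY308 had 5 and 22, RY308 20 and 12, and RY308 against the other 8 lines 635. With a replicate block, WY998 had 2 above both parents and no other count moved by over 1.5 times. Deviations of libraries from the mean of their line and tissue were also correlated between lines of the same tissue. The median was -0.016 over 216 pairs with the same number (-0.533 to 0.560) and 0.0015 over 432 pairs with different numbers. Single pairs varied widely, so these values do not settle whether the numbers pair libraries. Pairing across the tissues was not examined. Leaving out single libraries gave, above and below both parents, 0 to 7 and 0 to 2 in WY998, 6 to 91 and 23 to 101 in WY308, 21 to 52 and 12 to 52 in RY308, and 221 to 517 and 149 to 339 in WR. Against the other 8 lines it gave 374 to 532 in WY998, 1762 to 3070 in WY308, 550 to 814 in RY308, 1468 to 2612 in WR, 1937 to 4815 in R998, 660 to 879 in RFB and 2031 to 2734 in WFB. For the share of counts in block 00, hybrids minus parents turned positive without RY308 (0.305 points), WR (0.539) or R308 (1.42), and for the 10 most abundant gene models it was 4.80 without R308. The cause of these shifts was not tested. Depth limits what can be said of gene models near 0 in a tissue.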
